A study of Mus musculus with 12 samples.

Results

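The genes of the proteasome were followed through RNA-seq of B220+ splenocytes from 12 mice aged 4 to 5 weeks. The 48 genes were taken by name from 24421 gene symbols: every Psma, Psmb, Psmc, Psmd, Psme, Psmf or Psmg symbol with a number, provided that its reads summed over the 12 libraries to at least 120. The pattern matched 49 symbols, and Psmb11, the thymus-specific beta subunit, was left out because its reads did not reach that minimum. The 48 genes were sorted by role into 8 alpha and 7 beta subunits of the core, 9 base and 8 lid subunits of the regulatory particle, 7 assembly chaperones, 3 genes for other activators and an inhibitor, and 6 immunoproteasome genes. The last class holds Psmb8, Psmb9, Psmb10, Psme1 and Psme2, which the selection named, and Psme2b, a near copy of Psme2.

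Each mouse gave 1 library, and there were 3 mice per genotype. EuMyc Max KO mice carried the EuMyc transgene, which expresses Myc in the B lineage from the enhancer of the immunoglobulin heavy chain, together with a conditional knockout of Max. EuMyc mice carried the transgene with intact Max (labelled EuMyc Max WT), Max KO mice carried the conditional knockout alone, and WT mice had intact Max and no transgene (labelled Max WT). The series title calls the EuMyc cells premalignant. The Cre line, the deleted part of Max and the strain are not given in the labels used here. MAX is the partner with which MYC binds DNA, so the design asks what the transgene changes, what loss of Max changes, and how the 2 combine.

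The proteasome degrades proteins tagged with ubiquitin. Its core is a barrel of alpha and beta rings whose proteolytic sites sit on the beta subunits encoded by Psmb5, Psmb6 and Psmb7. The base of the regulatory particle unfolds substrates with its ATPases, and the lid removes their ubiquitin chains. In lymphoid cells and after interferon, Psmb8, Psmb9 and Psmb10 take the places of Psmb5, Psmb6 and Psmb7 and form the immunoproteasome, which cuts peptides suited to MHC class I, and Psme1 and Psme2 form an activator cap that goes with it.

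Libraries held between 14973332 and 21671601 reads assigned to genes. Levels are given in CPM, read counts brought to a common library size with TMM factors. Max had 108, 104 and 102 CPM in EuMyc Max KO libraries, against 126, 127 and 130 CPM in EuMyc libraries. It had 102, 102 and 99.8 CPM in Max KO libraries, against 139, 110 and 109 CPM in WT libraries. The Max KO libraries were below those with intact Max in both settings, but the counts over the whole gene do not show which exons were lost. Myc had 487 to 565 CPM in EuMyc Max KO libraries, 975 to 1049 CPM in EuMyc libraries, 120 to 136 CPM in Max KO libraries and 96.1 to 115 CPM in WT libraries. All 10 B cell markers had reads in every group, with a summed level of 8472 to 10261 CPM in EuMyc Max KO, 5042 to 5967 CPM in EuMyc, 10418 to 11483 CPM in Max KO and 12138 to 13234 CPM in WT libraries. Reads of 4 Y-linked genes were high in all 3 EuMyc libraries (275 to 301 CPM summed) and in replicate 3 of EuMyc Max KO, replicate 2 of Max KO and replicate 2 of WT (369 to 382 CPM). They stood at 0 to 1.41 CPM in the other 6 libraries, so the sex of the mice moved with the EuMyc group. EuMyc Max KO replicate 3 stood apart from its group on the second principal component of all genes, at -19.6 against -73.1 and -56.8 for replicates 1 and 2. Its 9 measured erythroid markers summed to 965 CPM, against 5470 and 3668 CPM in those 2 libraries. Erythroid markers summed to 321 to 413 CPM in EuMyc, 141 to 418 CPM in Max KO and 60.2 to 288 CPM in WT libraries. In bulk RNA, fewer cells of a type and less RNA per cell cannot be told apart.

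All 31 constitutive proteasome subunits rose in EuMyc B220+ cells against WT and were lower in EuMyc Max KO than in EuMyc cells, while no immunoproteasome gene was called higher in EuMyc. Without WT replicate 1, Psmb10 was called higher there (adjusted p = 0.0431), the one exception among the alternatives run. In EuMyc against WT, 42 of the 48 genes were called higher (adjusted p under 0.05), where 36.7% of all 12878 genes tested were, and 3 were called lower, where 34.9% of all genes were. The median log2 fold change was 0.91 over the 48 genes and 0.012 over all genes tested. The 31 constitutive subunits, those of the core, base and lid without Psma8, were among the 42, with a median of 0.96, or 1.94-fold. Between EuMyc Max KO and EuMyc, 39 of the 48 genes were called lower and 3 higher, against 36.1% and 37.6% of all genes. The same 31 constitutive subunits were among those called lower, with a median of -0.93 (0.525-fold), where the median over all genes was 0.028. These 2 comparisons share the EuMyc libraries, so their values stand side by side and are not independent of each other. With a term for Y-linked reads in the fit, an alternative chosen after the libraries had been seen, 42 genes were higher and 3 lower in EuMyc against WT, and 42 were lower and 2 higher in EuMyc Max KO against EuMyc. Without EuMyc Max KO replicate 3, the counts for that second comparison were 39 lower and 4 higher. All 48 genes together took 0.411% of scaled gene reads in EuMyc Max KO, 0.709% in EuMyc, 0.368% in Max KO and 0.407% in WT libraries.

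**Figure D1:**
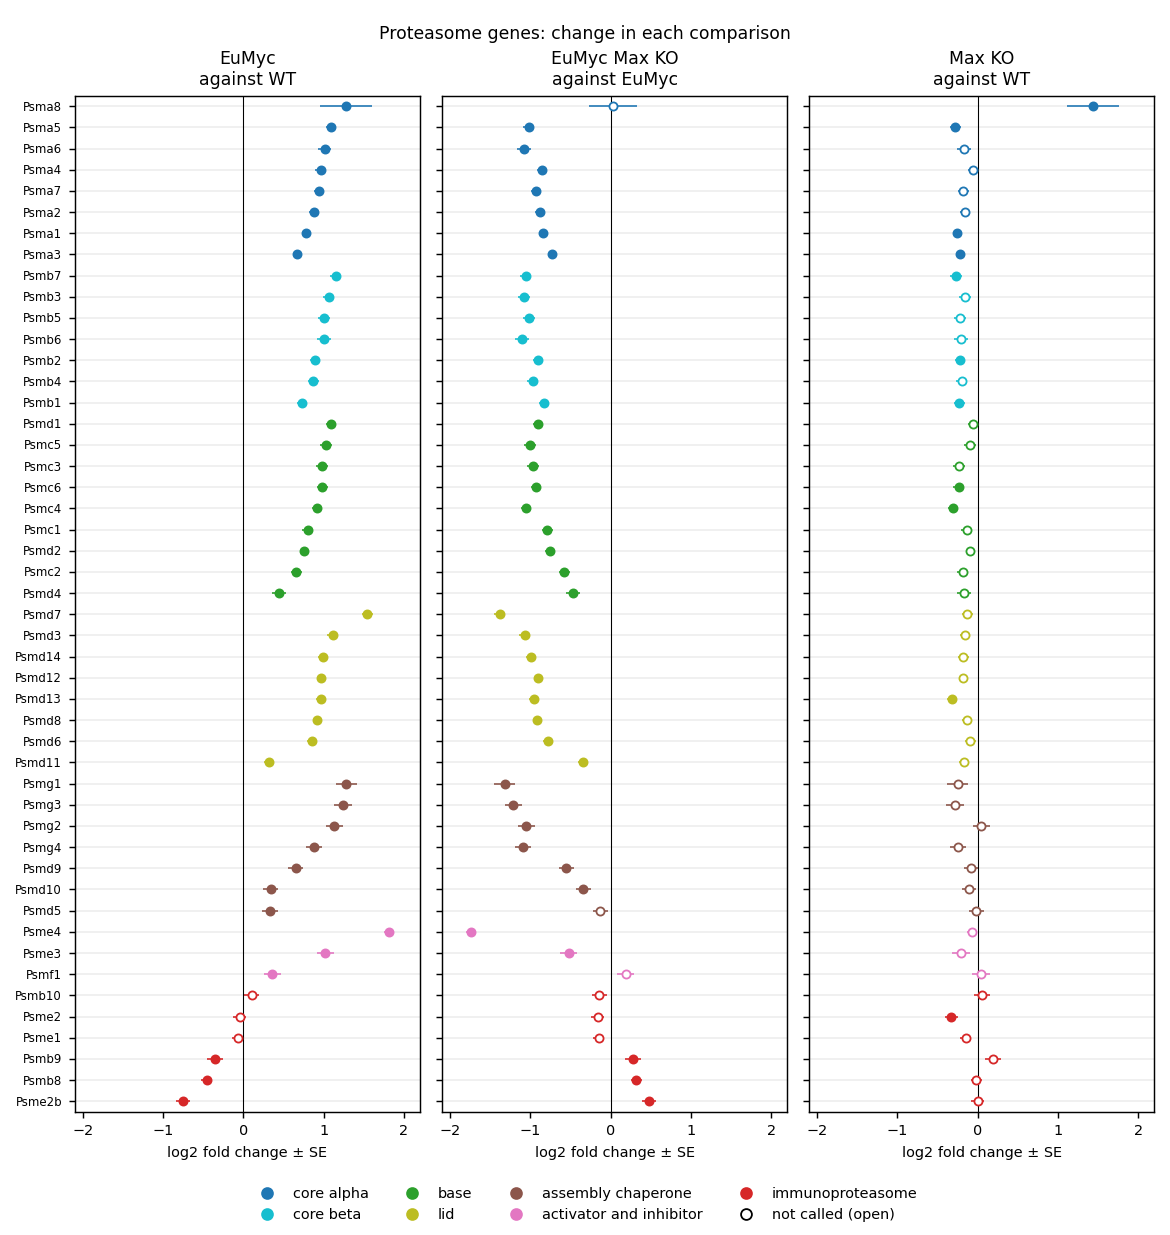
Log2 fold change with its standard error (bars) for each of the 48 proteasome genes for EuMyc over WT (left), EuMyc Max KO over EuMyc (middle) and Max KO over WT (right), coloured by class, with filled points for genes called at an adjusted p under 0.05. The core, base, lid and chaperone genes lie right of 0 in the first panel and, apart from Psma8, left of 0 in the second, while the immunoproteasome genes at the foot lie between -0.75 and 0.10 in the first panel.

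The 14 constitutive core subunits summed to 1213, 1183 and 1185 CPM in EuMyc Max KO libraries, 2152, 2383 and 2339 CPM in EuMyc libraries, 1022, 1090 and 1051 CPM in Max KO libraries, and 1288, 1161 and 1190 CPM in WT libraries. The EuMyc libraries stood alone above the other 9. Among the alpha subunits, which form the outer rings and the gate of the barrel, Psma5 rose most after Psma8 in EuMyc against WT. Psma5 had 83.1, 74.3 and 77.6 CPM in EuMyc Max KO, 154, 163 and 159 CPM in EuMyc, 59.6, 59.8 and 64.7 CPM in Max KO, and 79.7, 68.3 and 75.8 CPM in WT libraries. Its log2 fold change was 1.09 ± 0.0675 (SE) in EuMyc against WT (adjusted p = 1.41e-08) and -1.02 ± 0.0673 in EuMyc Max KO against EuMyc (adjusted p = 2.79e-08), and its libraries did not overlap in either comparison. Psma3 moved least of the constitutive alpha subunits, with log2 fold changes of 0.67 ± 0.0531 and -0.73 ± 0.0531 in the same 2 comparisons. It had 94.1, 92.2 and 97.2 CPM in EuMyc Max KO, 147, 159 and 164 CPM in EuMyc, 83.6, 83.2 and 86.3 CPM in Max KO, and 100, 99.2 and 95.1 CPM in WT libraries. Psma6 fell most in EuMyc Max KO against EuMyc, with a log2 fold change of -1.08 ± 0.0828. It had 90.7, 85.8 and 96.2 CPM in EuMyc Max KO, 181, 199 and 197 CPM in EuMyc, 74.6, 93.0 and 86.9 CPM in Max KO, and 103, 89.7 and 93.3 CPM in WT libraries.

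Psma8, an alpha subunit that replaces Psma7 in the testis, was the one core gene not called lower in EuMyc Max KO against EuMyc. It had 3.63, 3.73 and 4.58 CPM in EuMyc Max KO, 4.01, 4.57 and 3.08 CPM in EuMyc, 2.54, 5.50 and 5.09 CPM in Max KO, and 1.15, 2.16 and 1.49 CPM in WT libraries, from 20 to 89 reads a library. The WT libraries were below the other 9. Psma8 was called higher in EuMyc against WT (1.28 ± 0.322, adjusted p = 0.00304), in Max KO against WT (1.44 ± 0.323, adjusted p = 0.0117) and in EuMyc Max KO against WT (1.31 ± 0.322, adjusted p = 0.00995), and these 3 comparisons share the WT libraries. Between EuMyc Max KO and EuMyc its log2 fold change was 0.032 ± 0.300. Without WT replicate 1 the Max KO against WT call was lost (adjusted p = 0.0597).

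The beta subunits with proteolytic sites rose 2.0-fold to 2.21-fold in EuMyc against WT. Psmb5, the chymotrypsin-like subunit, had 58.2, 57.5 and 51.3 CPM in EuMyc Max KO, 110, 119 and 110 CPM in EuMyc, 48.6, 50.8 and 45.3 CPM in Max KO, and 59.0, 52.4 and 57.5 CPM in WT libraries. Psmb6, the caspase-like subunit, had 58.6, 62.2 and 52.7 CPM in EuMyc Max KO, 114, 134 and 125 CPM in EuMyc, 49.5, 57.8 and 54.2 CPM in Max KO, and 66.7, 58.9 and 60.8 CPM in WT libraries. Psmb7, the trypsin-like subunit, had 79.9, 77.1 and 72.3 CPM in EuMyc Max KO, 150, 169 and 158 CPM in EuMyc, 61.9, 61.6 and 55.2 CPM in Max KO, and 76.4, 67.6 and 71.7 CPM in WT libraries. In all 3 genes every EuMyc library was above every other library, and the EuMyc Max KO and WT libraries overlapped. The log2 fold changes in EuMyc against WT were 1.0 ± 0.0722 for Psmb5, 1.0 ± 0.0861 for Psmb6 and 1.15 ± 0.0702 for Psmb7, the highest of the class, with adjusted p-values of 5.17e-08, 2.76e-07 and 1.26e-08. The values for EuMyc Max KO against EuMyc were -1.02 ± 0.0721, -1.10 ± 0.0862 and -1.06 ± 0.07, and Psmb6 fell most of the 7 beta subunits. Psmb1, a beta subunit without proteolytic activity, changed least in both comparisons, with log2 fold changes of 0.73 ± 0.0649 and -0.83 ± 0.065. It had 114, 109 and 116 CPM in EuMyc Max KO, 190, 200 and 210 CPM in EuMyc, 98.0, 105 and 105 CPM in Max KO, and 131, 112 and 118 CPM in WT libraries. Psmb3, another beta subunit without proteolytic activity, had 70.7, 71.2 and 70.2 CPM in EuMyc Max KO, 140, 153 and 156 CPM in EuMyc, 59.5, 71.9 and 61.7 CPM in Max KO, and 74.7, 72.6 and 67.9 CPM in WT libraries. Its changes, 1.06 ± 0.0732 and -1.08 ± 0.0731, were close to those of the catalytic subunits.

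**Figure D2:**
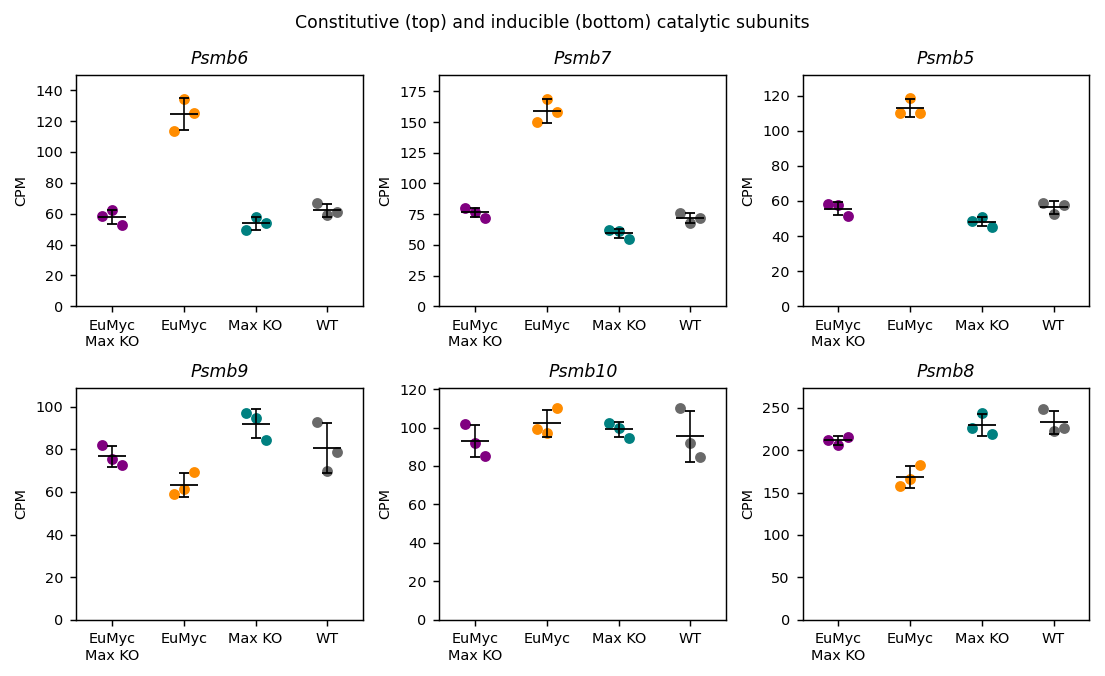
CPM of the 3 constitutive catalytic subunits (top) and of the inducible subunit that takes each one's place (bottom) in the 3 libraries of each genotype, with the mean (line) and SD (bars). Psmb6, Psmb7 and Psmb5 are at 110 to 169 CPM in the EuMyc libraries and at 45.3 to 79.9 CPM elsewhere, and Psmb8 and Psmb9 are lowest in EuMyc.

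The 9 base subunits, which include the ATPases Psmc1 to Psmc6, summed to 1009, 958 and 928 CPM in EuMyc Max KO, 1633, 1799 and 1686 CPM in EuMyc, 840, 867 and 850 CPM in Max KO, and 1014, 898 and 939 CPM in WT libraries. All 9 rose in EuMyc against WT, where 36.7% of all genes were called higher. All 9 fell in EuMyc Max KO against EuMyc, where 36.1% of all genes were called lower. Psmd1, the scaffold subunit at the edge of the base, rose most (1.09 ± 0.0586, adjusted p = 4.22e-09). It had 131, 123 and 114 CPM in EuMyc Max KO, 223, 243 and 226 CPM in EuMyc, 102, 107 and 103 CPM in Max KO, and 110, 105 and 110 CPM in WT libraries. The ATPase gene Psmc4 fell most in EuMyc Max KO against EuMyc (-1.05 ± 0.0612, adjusted p = 9.81e-09). It had 81.0, 82.3 and 82.0 CPM in EuMyc Max KO, 160, 173 and 175 CPM in EuMyc, 74.8, 72.1 and 70.8 CPM in Max KO, and 97.8, 86.9 and 85.0 CPM in WT libraries. Psmd4, a receptor for ubiquitin chains, changed least of the base genes in both comparisons, with log2 fold changes of 0.44 ± 0.0885 (adjusted p = 0.000643) and -0.47 ± 0.0885 (adjusted p = 0.000367). It had 118, 101 and 92.3 CPM in EuMyc Max KO, 135, 154 and 141 CPM in EuMyc, 94.0, 94.7 and 94.5 CPM in Max KO, and 115, 95.7 and 108 CPM in WT libraries. Its EuMyc libraries were above all others, and in EuMyc Max KO it was highest in replicate 1 and lowest in replicate 3, the order of the erythroid marker sum, whose part was not tested. The ATPase gene Psmc5 had 77.5, 72.5 and 71.0 CPM in EuMyc Max KO, 143, 150 and 150 CPM in EuMyc, 66.0, 72.5 and 64.1 CPM in Max KO, and 79.4, 72.3 and 64.9 CPM in WT libraries. Psmc2, also an ATPase gene, had 96.2, 90.3 and 89.5 CPM in EuMyc Max KO, 132, 144 and 137 CPM in EuMyc, 74.5, 76.5 and 78.2 CPM in Max KO, and 92.0, 77.3 and 91.9 CPM in WT libraries. In both, the EuMyc libraries lay above the other 9, by 1.03 ± 0.0749 for Psmc5 and 0.66 ± 0.0693 for Psmc2 on the log2 scale in EuMyc against WT.

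The 8 lid subunits summed to 640, 629 and 623 CPM in EuMyc Max KO, 1158, 1278 and 1225 CPM in EuMyc, 541, 547 and 546 CPM in Max KO, and 642, 602 and 598 CPM in WT libraries. Each of the 8 was called higher in EuMyc against WT, where 36.7% of all genes were. Each was called lower in EuMyc Max KO against EuMyc, where 36.1% of all genes were. Psmd7, the partner of the deubiquitinase Psmd14 in the lid, had the largest change of the constitutive subunits. It had 70.4, 70.6 and 64.6 CPM in EuMyc Max KO, 175, 191 and 169 CPM in EuMyc, 56.5, 53.3 and 58.0 CPM in Max KO, and 65.8, 58.9 and 59.3 CPM in WT libraries. Psmd7 was 2.91-fold higher in EuMyc than in WT (log2 fold change 1.54 ± 0.0677, adjusted p = 1.03e-09) and 0.385-fold in EuMyc Max KO against EuMyc (-1.38 ± 0.0673, adjusted p = 2.55e-09). Psmd14 itself had log2 fold changes of 0.99 ± 0.0653 and -0.99 ± 0.0652. Psmd11, a lid scaffold subunit, had the smallest change of the 31, at 0.32 ± 0.0607 (adjusted p = 0.000349) and -0.35 ± 0.0606 (adjusted p = 0.000168). It had 68.4, 77.3 and 68.0 CPM in EuMyc Max KO, 88.8, 93.6 and 90.3 CPM in EuMyc, 64.3, 63.3 and 66.7 CPM in Max KO, and 75.0, 71.1 and 72.0 CPM in WT libraries.

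All 7 assembly chaperones rose in EuMyc against WT, where 36.7% of all genes were called higher. Of the 7, 6 fell in EuMyc Max KO against EuMyc, where 36.1% of all genes were called lower. The 4 that help to build the core alpha ring, Psmg1 to Psmg4, had log2 fold changes of 1.28 ± 0.129, 1.13 ± 0.105, 1.24 ± 0.107 and 0.88 ± 0.0971 in EuMyc against WT. Psmg1, the highest of the class, had 12.2, 13.6 and 13.5 CPM in EuMyc Max KO, 32.5, 34.1 and 31.6 CPM in EuMyc, 11.1, 10.3 and 12.5 CPM in Max KO, and 15.7, 10.7 and 13.9 CPM in WT libraries, and it also fell most in EuMyc Max KO against EuMyc (-1.32 ± 0.129, adjusted p = 9.67e-07). The chaperones of the base had lower values in EuMyc against WT: 0.65 ± 0.0917 for Psmd9, 0.34 ± 0.091 for Psmd10 and 0.33 ± 0.0944 for Psmd5. Whether the core and base chaperones differ was not tested. Psmg2 had 23.3, 24.2 and 26.9 CPM in EuMyc Max KO, 46.1, 54.6 and 53.8 CPM in EuMyc, 20.9, 26.3 and 25.9 CPM in Max KO, and 25.6, 22.3 and 22.9 CPM in WT libraries. Psmd9 had 24.4, 22.9 and 22.5 CPM in EuMyc Max KO, 33.4, 34.8 and 33.6 CPM in EuMyc, 20.1, 20.5 and 20.7 CPM in Max KO, and 24.9, 19.2 and 20.8 CPM in WT libraries. Psmd10 had 25.8, 21.5 and 20.6 CPM in EuMyc Max KO, 28.3, 28.6 and 29.2 CPM in EuMyc, 22.5, 20.2 and 20.4 CPM in Max KO, and 22.8, 23.5 and 22.0 CPM in WT libraries. The EuMyc libraries were above all others in these 3 genes. Psmd5 had 67.4, 60.1 and 54.3 CPM in EuMyc Max KO, 64.0, 70.2 and 65.1 CPM in EuMyc, 50.5, 51.3 and 54.2 CPM in Max KO, and 59.6, 47.2 and 51.3 CPM in WT libraries. It was not called in EuMyc Max KO against EuMyc (-0.13 ± 0.094, adjusted p = 0.217), and was called lower with the term for Y-linked reads (-0.25, adjusted p = 0.0343). Within EuMyc Max KO, Psmd5, Psmd9 and Psmd10 were highest in replicate 1 and lowest in replicate 3, the order of the erythroid marker sum, whereas Psmg1 and Psmg2 were lowest in replicate 1. The part of the erythroid markers in these values was not tested.

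Psme4, which encodes the large nuclear activator that caps the core without ATP, changed more than any other proteasome gene. It had 154, 158 and 155 CPM in EuMyc Max KO, 539, 533 and 486 CPM in EuMyc, 146, 133 and 143 CPM in Max KO, and 147, 148 and 149 CPM in WT libraries. The EuMyc libraries lay far above the other 9, which spanned 133 to 158 CPM. Psme4 was 3.51-fold higher in EuMyc than in WT (log2 fold change 1.81 ± 0.0566, adjusted p = 2.05e-10) and 0.299-fold in EuMyc Max KO against EuMyc (-1.74 ± 0.0565, adjusted p = 2.91e-10). It was not called in Max KO against WT (-0.073 ± 0.0556) or in EuMyc Max KO against Max KO (0.14 ± 0.0555, adjusted p = 0.108).

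Psme3, which encodes the nuclear activator that works largely without ubiquitin, rose in EuMyc and stayed partly high in EuMyc Max KO. It had 295, 255 and 198 CPM in EuMyc Max KO, 345, 374 and 355 CPM in EuMyc, 156, 150 and 153 CPM in Max KO, and 184, 175 and 170 CPM in WT libraries. No EuMyc Max KO library overlapped those of another genotype, and the 3 differed among themselves more than the libraries of the other groups did. Psme3 was 2.03-fold higher in EuMyc than in WT (1.02 ± 0.109, adjusted p = 2.58e-06) and lower in EuMyc Max KO than in EuMyc (-0.52 ± 0.107, adjusted p = 0.000773). It was higher in EuMyc Max KO than in Max KO (0.71 ± 0.108, adjusted p = 0.00135) and than in WT (0.50 ± 0.108, adjusted p = 0.00545). Psmf1, which encodes an inhibitor of the core, had 73.3, 61.3 and 50.1 CPM in EuMyc Max KO, 51.1, 55.3 and 55.0 CPM in EuMyc, 43.4, 43.8 and 42.2 CPM in Max KO, and 42.6, 42.9 and 40.4 CPM in WT libraries. It was higher in EuMyc than in WT (0.36 ± 0.107, adjusted p = 0.00905). It was also higher in EuMyc Max KO than in Max KO (0.51 ± 0.107, adjusted p = 0.00744) and in EuMyc Max KO than in WT (0.55 ± 0.107, adjusted p = 0.00308). The Psmf1 libraries of EuMyc Max KO and EuMyc overlapped, and the change was 0.19 ± 0.106 (adjusted p = 0.115). It was called without EuMyc Max KO replicate 3 and with the upper-quartile or library-total scalings (adjusted p 0.00285 to 0.0196). Within the EuMyc Max KO group, Psme3 and Psmf1 were highest in replicate 1 and lowest in replicate 3, as was the erythroid marker sum (5470, 3668 and 965 CPM), and its part in these values was not tested.

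**Figure D3:**
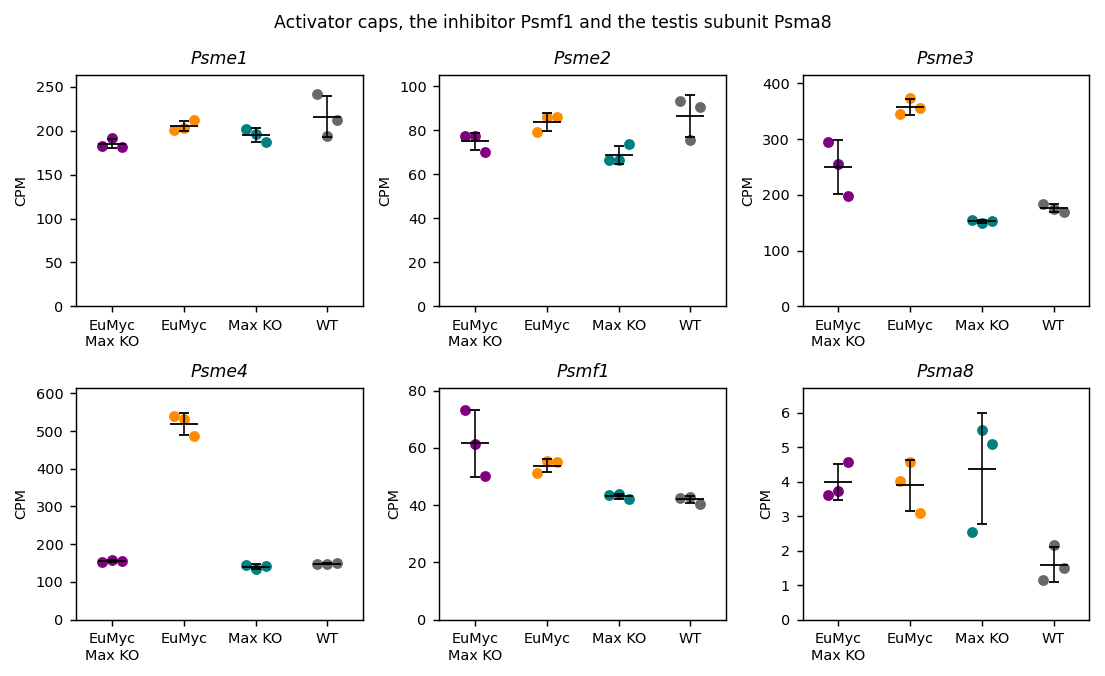
CPM of the activator genes Psme1 to Psme4, the inhibitor Psmf1 and the testis subunit Psma8 in the 3 libraries of each genotype, with the mean (line) and SD (bars). Psme4 stands at 486 to 539 CPM in EuMyc and at 133 to 158 CPM elsewhere, and Psme3 in EuMyc Max KO lies between EuMyc and the other 2 groups. Psme1 spans 182 to 242 CPM and Psme2 66.4 to 93.4 CPM over the 12 libraries, with the Psme2 libraries of Max KO below those of WT.

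Of the 5 named immunoproteasome genes, none was called higher in EuMyc against WT by edgeR (0 at an unadjusted p under 0.05 and 0 by DESeq2) and 2 were called lower, where 36.7% of all genes were higher and 34.9% lower. The 2 lower calls are thus near the share of all genes, and the median log2 fold change of the 5 was -0.072. Psmb8 and Psmb9 lie beside Tap1 in the MHC region, at chr17:34197721-34201454 and chr17:34181987-34187764 (GRCm38, mm10). Psmb9 shares exon bases with Tap1 on the opposite strand, and the strand setting of the counting is not known. Tap1 had log2 fold changes of -1.32 ± 0.0869 in EuMyc against WT and 1.34 ± 0.0869 in EuMyc Max KO against EuMyc. The part of this overlap in the Psmb9 values was not tested. Psmb8 had 212, 206 and 216 CPM in EuMyc Max KO, 157, 167 and 183 CPM in EuMyc, 226, 244 and 220 CPM in Max KO, and 249, 223 and 227 CPM in WT libraries. Psmb9 had 82.2, 75.3 and 72.9 CPM in EuMyc Max KO, 58.9, 61.2 and 69.4 CPM in EuMyc, 97.1, 94.7 and 84.4 CPM in Max KO, and 93.1, 70.1 and 78.7 CPM in WT libraries. Both were lowest in the EuMyc libraries, without overlap with any other library. Psmb8 fell to 0.726-fold in EuMyc against WT (-0.46 ± 0.0674, adjusted p = 3.9e-05) and Psmb9 to 0.784-fold (-0.35 ± 0.101, adjusted p = 0.00719). Against EuMyc, the EuMyc Max KO value of Psmb8 was higher (0.32 ± 0.0673, adjusted p = 0.000742), and so was Psmb9 (0.28 ± 0.101, adjusted p = 0.0229). The Psmb9 call was lost without EuMyc replicate 1, EuMyc replicate 2 or EuMyc Max KO replicate 1, and with the term for Y-linked reads (adjusted p 0.0707 to 0.121).

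Psmb10 had 102, 91.8 and 85.0 CPM in EuMyc Max KO, 99.2, 97.2 and 110 CPM in EuMyc, 103, 99.8 and 94.7 CPM in Max KO, and 110, 91.8 and 84.5 CPM in WT libraries. The groups overlapped, and Psmb10 was called in none of the 6 tests by edgeR (0 at an unadjusted p under 0.05 and 0 by DESeq2). Without WT replicate 1 it was called higher in EuMyc against WT (0.21, adjusted p = 0.0431) and its interaction term was called (adjusted p = 0.0398). Psme1 had 183, 191 and 182 CPM in EuMyc Max KO, 201, 204 and 212 CPM in EuMyc, 202, 196 and 187 CPM in Max KO, and 242, 195 and 213 CPM in WT libraries. Its log2 fold change was -0.072 ± 0.0704 in EuMyc against WT, and with the upper-quartile or library-total scalings it was called lower there (adjusted p 0.0183 to 0.0272). Against WT, Psme1 was called lower in EuMyc Max KO (-0.22 ± 0.0705, adjusted p = 0.0332), a call lost when any 1 EuMyc Max KO library, or replicate 1 or 3 of WT, was left out. Psme2 had 77.4, 77.2 and 70.3 CPM in EuMyc Max KO, 79.2, 86.3 and 86.0 CPM in EuMyc, 66.5, 66.4 and 73.8 CPM in Max KO, and 93.4, 75.8 and 90.5 CPM in WT libraries, with -0.047 ± 0.0815 in EuMyc against WT. For EuMyc Max KO against EuMyc, Psme1 and Psme2 had -0.15 ± 0.0705 and -0.16 ± 0.0816, and both were called lower with the term for Y-linked reads (adjusted p 0.0371 and 0.00669). Both were also called without WT replicate 2, and Psme1 without WT replicate 1 and in a fit of these groups only (adjusted p 0.0251 to 0.0448). Psme2b had 32.4, 37.6 and 38.5 CPM in EuMyc Max KO, 25.1, 24.0 and 28.6 CPM in EuMyc, 43.1, 42.0 and 45.4 CPM in Max KO, and 43.8, 42.2 and 44.8 CPM in WT libraries. It fell in EuMyc against WT (-0.75 ± 0.086, adjusted p = 4.06e-06) and rose in EuMyc Max KO against EuMyc (0.48 ± 0.086, adjusted p = 0.000221). Reads of Psme2 and Psme2b may be split between the near copies, so both values are uncertain.

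Several lists of markers of other cell types moved in the same direction as Psmb8 and Psmb9, and so did the B cell markers. All 10 B cell markers were lower in EuMyc against WT (median log2 fold change -0.93). In EuMyc Max KO against EuMyc, 8 of the 10 were higher and 1 was lower (median 0.51), where 37.6% and 36.1% of all genes were. In EuMyc against WT, 9 of 9 T cell markers tested, 7 of 7 plasmacytoid dendritic cell markers, 10 of 12 monocyte and macrophage markers, 6 of 7 NK cell markers and 4 of 6 plasma cell markers were lower. In the same lists, 1 monocyte and macrophage marker and 1 plasma cell marker were higher. Of all genes tested, 34.9% were lower and 36.7% higher in that comparison. Erythroid markers went the other way there, with 4 of 7 tested higher and none lower (median 2.2), and the 5 neutrophil markers tested had a median of 0.20. In EuMyc Max KO against EuMyc, both of those lists were higher in all members tested (7 of 7 and 5 of 5), as were the T cell, NK cell and plasmacytoid dendritic cell lists. Of the monocyte and macrophage markers 11 were higher and 1 lower there, and of the plasma cell markers 4 were higher and 1 lower. Of all genes, 37.6% were higher and 36.1% lower. The 12 monocyte and macrophage markers, all with reads in each group, summed to 2709 to 5350 CPM in EuMyc Max KO, 821 to 1074 CPM in EuMyc, 2677 to 3712 CPM in Max KO and 1693 to 2121 CPM in WT libraries. The 9 measured T cell markers summed to 165 to 175, 30.1 to 30.9, 166 to 188 and 110 to 135 CPM in the same 4 groups, and the 7 plasmacytoid dendritic cell markers to 880 to 908, 259 to 349, 1010 to 1286 and 897 to 934 CPM. The part of these markers in the values of the immunoproteasome genes and of the constitutive subunits was not tested.

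The ratio of each inducible catalytic subunit to the one whose place it takes was lowest in EuMyc in all 3 pairs. Psmb8 to Psmb5 was 3.65, 3.59 and 4.22 (CPM over CPM) in EuMyc Max KO, 1.43, 1.41 and 1.66 in EuMyc, 4.65, 4.80 and 4.85 in Max KO, and 4.22, 4.25 and 3.94 in WT libraries. Psmb9 to Psmb6 was 1.40, 1.21 and 1.38 in EuMyc Max KO, 0.518, 0.456 and 0.554 in EuMyc, 1.96, 1.64 and 1.56 in Max KO, and 1.40, 1.19 and 1.29 in WT libraries. Psmb10 to Psmb7 was 1.27, 1.19 and 1.18 in EuMyc Max KO, 0.662, 0.575 and 0.696 in EuMyc, 1.66, 1.62 and 1.72 in Max KO, and 1.44, 1.36 and 1.18 in WT libraries. In each pair the EuMyc libraries were below all others, the Max KO libraries were above all others, and the EuMyc Max KO and WT libraries overlapped. The log2 difference of the mean ratio in EuMyc against WT was -1.47, -1.35 and -1.04 for the 3 pairs, and in Max KO against WT it was 0.20, 0.41 and 0.33. These ratios were compared without a test. Per length of exon, Psmb8 stood at 2.06 ± 0.185 times Psmb5 in EuMyc Max KO, 0.808 ± 0.0747 times in EuMyc, 2.57 ± 0.0542 times in Max KO and 2.23 ± 0.0914 times in WT (SD, n = 3 each). By this measure Psmb5 was above Psmb8 in EuMyc, whereas by CPM Psmb8 was above Psmb5 in all 12 libraries. The order per length rests on the lengths used, 1669 bases for Psmb8 and 899 for Psmb5. These lengths join the exons of all coding transcripts of a gene. Per length, Psmb9 was below Psmb6 in all 12 libraries, with ratios of 0.575 to 0.666, 0.217 to 0.263, 0.739 to 0.932 and 0.565 to 0.662 in the same 4 groups. That order too rests on the lengths, 1681 bases for Psmb9 and 798 for Psmb6, and by CPM Psmb9 was below Psmb6 in the EuMyc libraries only. Per length, Psmb10 to Psmb7 was 1.07 ± 0.0467 in EuMyc Max KO, 0.570 ± 0.0554 in EuMyc, 1.47 ± 0.0418 in Max KO and 1.17 ± 0.120 in WT.

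**Figure D4:**
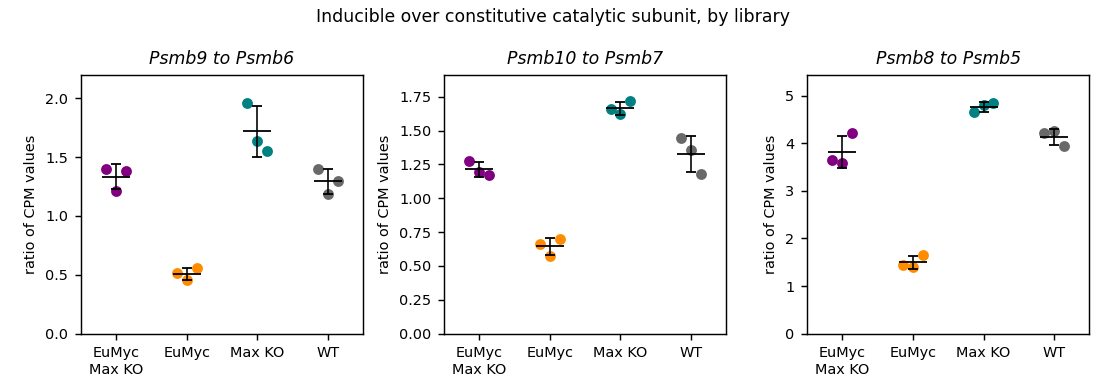
Ratio of the CPM of each inducible catalytic subunit to that of its constitutive counterpart, per library, with the mean (line) and SD (bars) of 3 libraries per genotype. EuMyc is lowest and Max KO highest in each panel, with Psmb8 to Psmb5 at 1.41 to 1.66 in EuMyc and 4.65 to 4.85 in Max KO.

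In cells without the transgene, the proteasome changes that went with loss of Max were small. In Max KO against WT, 10 of the 48 genes were called lower, where 7.74% of all genes tested were, and 1, Psma8, was called higher, where 7.27% were. The 31 constitutive subunits all had a negative log2 fold change, with a median of -0.18 against -0.003 over all genes, and 9 of them were called. Those 9 were the core genes Psma1, Psma3, Psma5, Psmb1, Psmb2 and Psmb7, the ATPase genes Psmc4 and Psmc6, and the lid gene Psmd13, at -0.22 to -0.32. Psmd13 had the lowest value of the 31 (-0.32 ± 0.0637, adjusted p = 0.00695), with 82.3, 78.2 and 71.4 CPM in EuMyc Max KO, 145, 158 and 145 CPM in EuMyc, 62.9, 59.4 and 60.7 CPM in Max KO, and 79.2, 74.3 and 74.8 CPM in WT libraries. In Psmb2, which had the smallest called change of the core beta genes (-0.22 ± 0.0633, adjusted p = 0.0376), the 3 Max KO libraries were also the lowest of the 12, with 67.8, 65.2 and 68.6 CPM in EuMyc Max KO, 119, 130 and 127 CPM in EuMyc, 56.9, 60.5 and 56.8 CPM in Max KO, and 73.0, 64.2 and 65.3 CPM in WT libraries. Psmc6 (-0.24 ± 0.0677, adjusted p = 0.033) had 71.3, 73.6 and 69.0 CPM in EuMyc Max KO, 135, 146 and 128 CPM in EuMyc, 57.5, 54.5 and 62.5 CPM in Max KO, and 71.8, 66.5 and 68.0 CPM in WT libraries. Psme2 was the remaining gene called lower (-0.33 ± 0.082, adjusted p = 0.0196). The Psmb2 call was lost in 10 alternatives (adjusted p 0.0531 to 0.153), among them library totals, no filter, the replicate block and a fit of these groups only. The Psmc6 call was lost in 6 (adjusted p 0.054 to 0.122), among them library totals and the replicate block. The count rested on single libraries: it was 4 when replicate 1 of Max KO was left out and 5 when its replicate 2 was. It was 3 when replicate 1 of WT was left out and 4 when its replicate 3 was. Of 6 plasma cell markers 4 were called lower and 1 higher, where 7.74% and 7.27% of all genes were. Their sum was 469 to 572 CPM in Max KO and 944 to 1652 CPM in WT libraries. Of the 12 monocyte and macrophage markers 3 were higher, where 7.27% of all genes were, with a sum of 2677 to 3712 CPM in Max KO and 1693 to 2121 CPM in WT libraries. Of 10 B cell markers 2 were lower, where 7.74% of all genes were, with a sum of 10418 to 11483 CPM in Max KO and 12138 to 13234 CPM in WT libraries. Of 9 T cell markers tested 2 were higher, where 7.27% of all genes were, with a sum of 166 to 188 CPM in Max KO and 110 to 135 CPM in WT libraries. The part of these lists in the proteasome values was not tested.

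In Max KO cells the transgene had a small effect on the same genes. Between EuMyc Max KO and Max KO, 13 of the 48 genes were called higher, where 10.7% of all genes were, and none was called lower, where 3.69% were. The count of 0 came from edgeR; 2 genes were lower at an unadjusted p under 0.05, and DESeq2 called 1 lower. The median over the 31 constitutive subunits was 0.17 (1.13-fold), against 0.96 in EuMyc against WT, and these 2 comparisons share no library. The level of Myc differed as well, at 487 to 565 CPM in EuMyc Max KO and 975 to 1049 CPM in EuMyc libraries. Its part in the smaller effect was not tested. Psme3 (0.71) and Psmf1 (0.51) were highest, and 11 constitutive subunits followed, from Psmb7 (0.36 ± 0.0706, adjusted p = 0.0051) and Psma5 (0.35 ± 0.0678, adjusted p = 0.00456) down to Psma1 (0.20 ± 0.052, adjusted p = 0.0204). The others were Psmb2, Psmc2, Psmc3, Psmc6, Psmd1, Psmd7, Psmd12 and Psmd13. The count of 13 was 7 or 6 when replicate 1 or 2 of EuMyc Max KO was left out, and 7, 8 and 8 when replicate 1, 2 or 3 of Max KO was. It was 7 when the fit held these 2 groups only. The calls of Psmc3 and Psmb2 were lost in most alternatives, 16 (adjusted p 0.0508 to 0.195) and 14 (adjusted p 0.0513 to 0.159) of them. Erythroid markers were higher in 5 of 7 tested, where 10.7% of all genes were, and their part was not tested. Set against WT, EuMyc Max KO had 4 genes higher (Psma8, Psme3, Psmf1 and Psmd1), where 17.0% of all genes were. The Psmd1 call was lost in 13 alternatives (adjusted p 0.0539 to 0.162), including DESeq2, upper-quartile and RLE factors, no filter, the replicate block, these groups only and 7 fits that left out a library. EuMyc Max KO had 2 lower (Psme1 and Psme2b), where 10.8% were, and the median over the 48 was 0.006. The lower count was 0 when replicate 1 or 2 of EuMyc Max KO or replicate 1 or 3 of WT was left out, and 1 when replicate 3 of EuMyc Max KO was. With 3 mice a group, the median of 0.006 came with 42 genes not called, which does not show that the 2 genotypes were alike. Between EuMyc Max KO and WT, 7 of 10 B cell markers were lower, where 10.8% of all genes were. Higher were 7 of 7 erythroid markers tested, 10 of 12 monocyte and macrophage, 5 of 5 neutrophil, 3 of 9 T cell and 1 of 7 NK cell markers. Of 6 plasma cell markers 1 was higher and 1 lower, and the 7 plasmacytoid dendritic cell markers had a median of 0.00. The part of these markers in the proteasome values was not tested.

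**Figure D5:**
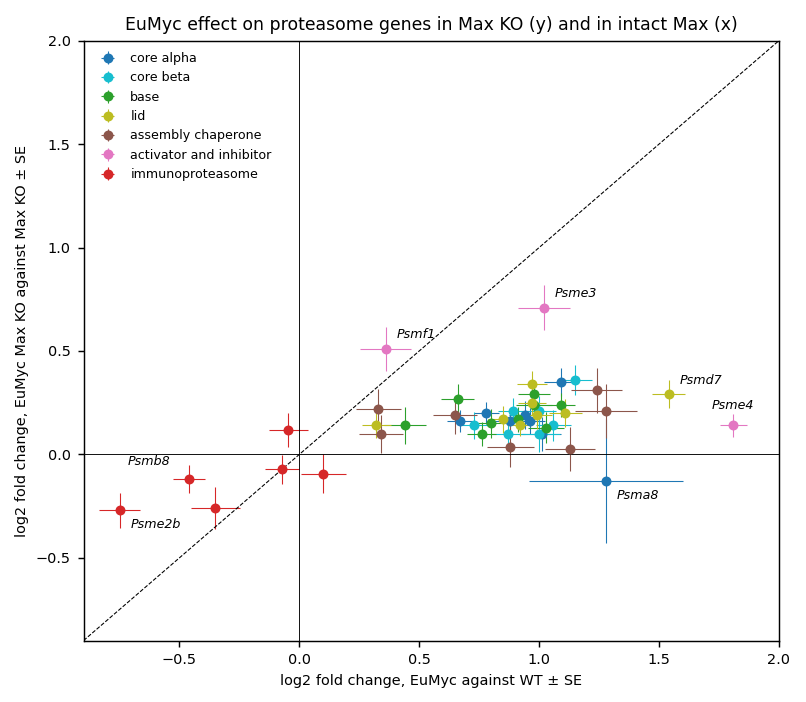
Log2 fold change of each proteasome gene in EuMyc Max KO against Max KO (vertical) and in EuMyc against WT (horizontal), with standard errors, coloured by class, with the line of equal change dashed. The constitutive subunits lie at 0.32 to 1.54 on the horizontal axis and at 0.10 to 0.36 on the vertical one, Psme3 and Psmf1 are the highest genes on the vertical axis, and Psme4 lies at 1.81 and 0.14.

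The interaction term tests whether the effect of the transgene differed between Max KO and intact Max. Myc stood at 487 to 565 CPM in EuMyc Max KO and at 975 to 1049 CPM in EuMyc libraries, and the part of that difference in the term was not tested. The term was called negative for 36 of the 48 genes, where 27.9% of all genes were, and positive for 2, where 27.8% were. The median was -0.72 over the 48 genes and 0.024 over all genes. Psme4 had the most negative term (-1.67 ± 0.0787, adjusted p = 3.81e-08), and Psmd7 the most negative among the 31 constitutive subunits (-1.25 ± 0.095, adjusted p = 5.04e-07). Among the core beta genes the terms ran from -0.92 for Psmb3 to -0.59 for Psmb1, among the base genes called from -0.91 for Psmc5 to -0.39 for Psmc2, and among the chaperones called from -1.10 for Psmg2 to -0.46 for Psmd9. The 2 positive terms were those of Psmb8 (0.34 ± 0.095, adjusted p = 0.00809) and Psme2b (0.48 ± 0.121, adjusted p = 0.00424). Not called were Psmd4 (-0.30 ± 0.125), Psmd11 (-0.19 ± 0.086), Psmd5 (-0.11 ± 0.134), Psmd10 (-0.23 ± 0.129), Psme3 (-0.31 ± 0.152), Psmf1 (0.16 ± 0.151), Psmb9 (0.090 ± 0.143), Psmb10 (-0.19 ± 0.134), Psme1 (-0.001 ± 0.0997) and Psme2 (0.17 ± 0.116). Of these, the Psmd4 term was called in 4 alternatives (adjusted p 0.00672 to 0.0495), which were the term for Y-linked reads and leaving out WT replicate 1, EuMyc replicate 1 or EuMyc Max KO replicate 1. The Psme3 term was called in 2 (adjusted p 0.0258 with the term for Y-linked reads and 0.00581 without EuMyc Max KO replicate 1). Psmd10, Psmd11, Psmf1, Psmb10 and Psme2 were each called when 1 library was left out (adjusted p 0.0256 to 0.0471).

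Promoters were searched because so many members moved together. RefSeq promoter windows on GRCm38.p6, 250 bases before to 50 after the start, were at hand for 40 of the 48 genes. The E-box CACGTG, the sequence that MYC and MAX bind best, reads the same on both strands and was found in 4 of the 40 (10%), against 11.8% of 9855 genes tested that have a promoter. Those 4 were Psma4, Psmb10, Psmd9 and Psme3, and Psma4 was the only 1 among 25 constitutive subunits. The windows of the 3 of them that rose in EuMyc, and of Psme4, which rose most and has no match, are shown with the E-box in capitals. In Psme3 it begins 44 bases before the start (chr11:101315963-101316262, plus strand), in Psma4 140 before (chr9:54950609-54950908, plus strand) and in Psmd9 51 before (chr5:123227940-123228239, plus strand), and Psme4 is at chr11:30771525-30771824, plus strand.
Psme3: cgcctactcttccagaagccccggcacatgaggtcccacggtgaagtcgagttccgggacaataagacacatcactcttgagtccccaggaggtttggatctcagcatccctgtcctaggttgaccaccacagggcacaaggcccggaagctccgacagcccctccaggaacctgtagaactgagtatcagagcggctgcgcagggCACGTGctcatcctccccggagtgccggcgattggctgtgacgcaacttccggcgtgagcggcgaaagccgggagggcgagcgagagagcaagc
Psma4: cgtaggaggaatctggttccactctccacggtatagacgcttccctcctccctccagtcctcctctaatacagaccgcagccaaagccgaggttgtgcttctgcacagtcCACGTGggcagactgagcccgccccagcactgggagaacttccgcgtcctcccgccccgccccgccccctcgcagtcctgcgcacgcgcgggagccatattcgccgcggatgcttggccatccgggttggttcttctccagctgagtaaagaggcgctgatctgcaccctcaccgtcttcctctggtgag
Psmd9: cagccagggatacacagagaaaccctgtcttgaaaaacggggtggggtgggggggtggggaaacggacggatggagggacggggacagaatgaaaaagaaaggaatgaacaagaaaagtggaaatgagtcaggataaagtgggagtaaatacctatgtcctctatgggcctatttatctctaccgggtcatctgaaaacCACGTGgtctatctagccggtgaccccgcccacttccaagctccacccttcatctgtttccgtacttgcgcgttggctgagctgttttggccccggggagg
Psme4: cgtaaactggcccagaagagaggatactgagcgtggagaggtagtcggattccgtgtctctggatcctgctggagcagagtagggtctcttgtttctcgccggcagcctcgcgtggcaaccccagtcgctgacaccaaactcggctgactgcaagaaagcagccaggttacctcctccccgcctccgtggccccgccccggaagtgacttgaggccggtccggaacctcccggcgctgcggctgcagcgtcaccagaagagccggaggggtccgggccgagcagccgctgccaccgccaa

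The log2 fold changes in EuMyc against WT were 1.02, 0.96 and 0.65 for Psme3, Psma4 and Psmd9, within the range of the members without the match, and Psmb10, which has it, was not called. Of other motifs searched on both strands, the core of the antioxidant response element, TGACNNNGC, was in 6 of 40 promoters (15%, against 17.3% of genes tested). The interferon element core GAAANNGAA was in 7 of 40 (17.5%, against 8.93%). Those 7 were Psmb3, Psmb4, Psmc2 and Psmd4, which are 4 of 25 constitutive subunits (16%), the chaperones Psmd9 and Psmg4, and Psme1. Psme1 was the only 1 of the 5 named immunoproteasome genes with that core. CCAAT was in 13 of 40 (32.5%, against 43.1%). A match here is a match of letters in a short window and shows no binding.

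Other genes work with the proteasome under other names. Of 12 such partner genes listed, 11 were tested. In EuMyc against WT 9 were higher and 1, Zfand5, was lower, where 36.7% and 34.9% of all genes were. In EuMyc Max KO against EuMyc 7 were lower and 2, Fbxo7 and Zfand5, were higher, where 36.1% and 37.6% of all genes were, and Akirin2 and Ube3c were not called. The largest change was that of Uchl5, a deubiquitinase of the regulatory particle, at 31.0 CPM on average in EuMyc Max KO, 80.5 in EuMyc, 23.9 in Max KO and 28.0 in WT, and it had log2 fold changes of 1.52 ± 0.0833 in EuMyc against WT and -1.38 ± 0.0827 in EuMyc Max KO against EuMyc. In Max KO against WT only Zfand5, which encodes a proteasome-binding zinc finger protein, was called (-0.31 ± 0.0749), where 7.27% of all genes were higher and 7.74% lower. Of 13 genes reported for ubiquitin supply and shuttling, 7 were higher and none lower in EuMyc against WT by edgeR (0 lower at an unadjusted p under 0.05 and 0 by DESeq2), against 36.7% and 34.9% of all genes. In the same list 9 were lower and none higher in EuMyc Max KO against EuMyc by edgeR (0 higher at an unadjusted p under 0.05, and 1 by DESeq2), against 36.1% and 37.6% of all genes. Rad23b, which encodes a shuttle that carries ubiquitin-tagged proteins to the proteasome, had the largest change of those 13 in EuMyc against WT, at 0.86 ± 0.0564 (adjusted p = 2.37e-08). The ubiquitin and ribosomal fusion gene Rps27a, whose reads may be shared with copies, had it in EuMyc Max KO against EuMyc (-0.90 ± 0.0832) and in Max KO against WT (-0.51 ± 0.0828). In Max KO against WT 2 of the 13 were called, both lower, where 7.27% of all genes were higher and 7.74% lower.

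The list for NRF1, the transcription factor that raises proteasome genes when proteasome activity is short, had 1 of 8 genes higher and 4 lower in EuMyc against WT, where 36.7% and 34.9% of all genes were. It had 6 higher and 2 lower in EuMyc Max KO against EuMyc, where 37.6% and 36.1% were. None was called by edgeR in Max KO against WT (1 higher and 1 lower at an unadjusted p under 0.05, and 1 lower by DESeq2), where 7.27% of all genes were higher and 7.74% lower. The largest changes in this list were those of Maff, a small Maf partner of such factors, at 2.66 CPM on average in EuMyc Max KO and 0.478 in EuMyc (2.46 ± 0.296), and at that 0.478 in EuMyc against 2.76 in WT (-2.51 ± 0.296). These Maff levels are low. Nfe2l1, the gene for NRF1, averaged 181 CPM in EuMyc Max KO, 111 in EuMyc, 175 in Max KO and 161 in WT. It was lower in EuMyc against WT (-0.54 ± 0.0531, adjusted p = 9.31e-07) and higher in EuMyc Max KO against EuMyc (0.71 ± 0.0531, adjusted p = 8.56e-08). Of the 13 genes of MHC class I peptide loading and its activators, 11 moved opposite to the constitutive subunits in both comparisons. In EuMyc against WT 11 were lower and 1 higher (34.9% and 36.7% of all genes), with a median of -1.23. In EuMyc Max KO against EuMyc 11 were higher and 1 lower (37.6% and 36.1% of all genes), with a median of 1.34. Erap1, which trims peptides for class I, was the gene that moved with the constitutive subunits (0.28 and -0.20), and Pdia3 was not called in either comparison (0.029 and 0.053). The class I heavy chain gene H2-K1 averaged 1760 CPM in EuMyc Max KO, 460 in EuMyc, 2095 in Max KO and 1541 in WT, with -1.74 ± 0.0844 in EuMyc against WT and 1.94 ± 0.0849 in EuMyc Max KO against EuMyc. In Max KO against WT 3 of the 13 were higher and none lower by edgeR (0 lower at an unadjusted p under 0.05 and 0 by DESeq2), where 7.27% and 7.74% of all genes were. Nlrc5, the activator of class I genes, had the largest change there (0.58 ± 0.14, adjusted p = 0.0209). Psmb8 and Psmb9, whose products feed that pathway, had -0.46 and -0.35 in EuMyc against WT. Several of the marker lists given with Psmb8 and Psmb9, the B cell list among them, moved with this list too, and their part in it was not tested.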

How the data were processed

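RNA of B220+ splenocytes was sequenced from 12 mice. Per the submitters' processing notes, bcl2fastq 1.8.4, TopHat2 2.1.0, HTSeq 0.6.1 and build mm10 were used. The authors deposited raw read counts by gene symbol, with 1 file for each mouse. The annotation and the strand setting are not known from the labels, so the 9 members that share an exon with another counted gene (Psma4, Psmb5, Psmb7, Psmb9, Psmc3, Psmd1, Psmd13, Psme1 and Psme2b) are uncertain. Reads that HTSeq assigned to no gene (12.5% to 20.3%), as ambiguous (0.748% to 1.45%) or as not unique (20.3% to 27.9%) stayed out.

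Counts were fitted with R 4.3.3 and edgeR 4.0.16: filterByExpr (12878 of 24421 genes, all 48 members), TMM, and a quasi-likelihood model with robust = TRUE on all 12 libraries (8 residual degrees of freedom, biological coefficient of variation 13.7%). SE is the absolute log2 fold change over the square root of F. Benjamini-Hochberg adjustment ran over all genes, with calls under 0.05. RPKM used exon lengths of GENCODE vM21. Replicates differed beyond sampling noise (chi-square per degree of freedom 7.81 to 69.6). The steps were tested on simulated data.

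Members, gene lists and tests were chosen with earlier results of these data known. In the list for ubiquitin supply and shuttling, 1 gene is not reported here, and the counts leave it out. Named in every library were the immunoproteasome and catalytic genes, Psme3, Psme4 and Psmf1, and in each class the called genes with the extreme changes. Alternatives were other scalings, no filter, DESeq2 1.42.0, only the groups compared, a replicate block, a Y-linked term and leaving out each library.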

Additional observations from a re-analysis of the deposited data

Results flagged for a closer look

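The effect of the EuMyc transgene differed between Max KO and intact Max, by the interaction term of the edgeR fit at an adjusted p under 0.05, for 38 of the 48 proteasome genes. The term was negative for 36 and positive for 2, where 27.9% and 27.8% of all genes tested were. The Myc level also differed between EuMyc Max KO and EuMyc libraries, as given above, and its part was not tested. Values are log2 interaction terms, the transgene's change in Max KO minus its change with intact Max. Of the alpha subunits, Psma1 had -0.58, Psma2 -0.72, Psma3 -0.51, Psma4 -0.80, Psma5 -0.74, Psma6 -0.91, Psma7 -0.75 and Psma8 -1.41. Of the beta subunits, Psmb1 had -0.59, Psmb2 -0.68, Psmb3 -0.92, Psmb4 -0.77, Psmb5 -0.80, Psmb6 -0.90 and Psmb7 -0.79. Of the base genes, Psmc1 had -0.65, Psmc2 -0.39, Psmc3 -0.74, Psmc4 -0.74, Psmc5 -0.91, Psmc6 -0.69, Psmd1 -0.85 and Psmd2 -0.66. Of the lid genes, Psmd3 had -0.91, Psmd6 -0.69, Psmd7 -1.25, Psmd8 -0.77, Psmd12 -0.72, Psmd13 -0.63 and Psmd14 -0.80. Of the chaperones, Psmg1 had -1.07, Psmg2 -1.10, Psmg3 -0.93, Psmg4 -0.84 and Psmd9 -0.46. Psme4 had -1.67, and the 2 positive terms were Psmb8 with 0.34 and Psme2b with 0.48. In Psma8 the negative term stands beside a rise in Max KO against WT (1.44), whereas Psme4 had -0.073 in that comparison.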

How the results depend on the processing

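All members kept the direction of every called change under every alternative run. No call of EuMyc against WT or of the interaction was lost under any alternative; calls gained there are given with the genes in the results. In EuMyc Max KO against Max KO the count of genes lower was 2 with upper-quartile factors, 1 with library totals, 1 with DESeq2 and 1 with the replicate block, against 0; the count higher was 7 with only the groups compared, against 13. In EuMyc Max KO against WT the count lower was 4 with upper-quartile factors and 0 with only the groups compared, against 2. Leaving out each of the 12 libraries gave 0 to 1 higher and 3 to 13 lower in Max KO against WT, 6 to 16 higher and 0 to 1 lower in EuMyc Max KO against Max KO, and 0 to 3 lower in EuMyc Max KO against WT. The cause was not tested. Same-numbered libraries correlated at -0.117 to 0.344 in their deviations, over 0.1 in 4 of 18 pairs, and differently numbered ones at -0.262 to 0.173. Between WT and Max KO the same-numbered pairs had 0.179, 0.344 and 0.095, and the others -0.262 to 0.091. These correlations cannot settle whether replicate numbers pair the mice. With the replicate block, 8 genes were lower in Max KO against WT, against 10, and the block moved no other count by over 1.5 times. Upper-quartile factors moved the median of all genes by -0.127 in EuMyc against WT (to -0.115), 0.088 in EuMyc Max KO against EuMyc and 0.089 in the interaction, and library totals by -0.104, 0.12 and 0.081. Psma8, with 20 to 89 reads a library, is the member that depth limits most.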
